A study of Gallus gallus and Anas platyrhynchos and Coturnix japonica with 43 samples.

Results

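The hypothalamus of Japanese quail was compared with that of lean line chickens on spotted arrays of chicken cDNA clones. The differences are between 7 of the 43 arrays of the study, chosen by tissue and species from their titles: 3 of quail hypothalamus and 4 of chicken hypothalamus. The spread behind each SE and p was estimated over all 43 arrays, and so mostly on the 36 of other groups. Each array took the RNA of 1 sample labelled with Cy3 and a common reference labelled with Cy5, which was a pool of chicken liver, fat, muscle and hypothalamus RNA. The other arrays carried chicken liver, muscle and fat, and liver or hypothalamus of turkey, quail, duck, kestrel and sparrow.

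The quail were randomly bred birds of a university colony, brooded for 6 weeks, then caged in mixed-sex groups, mature at 8 weeks, housed singly from an age of 9 to 12 months, and kept under 15 h of light and 9 h of dark. No source used here gives their exact age at sampling or their sex. The chickens were cockerels, 9 weeks old, of a line selected from broilers for low abdominal fat, kept on floor pens under 14 h of light and 10 h of dark. No treatment was given to either group, and both were labelled from 25 micrograms of RNA. Line, husbandry, light schedule and, if sampling followed single housing, age differed along with the species, and sex may have. Their effects cannot be told apart. The chicken livers, muscle and fat used below came from birds 6 weeks old, under 20 h of light and 4 h of dark. These were other birds than those of the chicken hypothalami. In chicken, hypothalamus thus differs from the other tissues in age and light schedule too. The titles name the lean line for the chicken hypothalami only, so line may differ as well. The array and the reference are both chicken, so a lower RNA level in quail and a weaker match of quail RNA to a chicken clone cannot be told apart either. Whether each array stands for its own bird is not stated, so the spread that a p-value is set against may be technical.

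The hypothalamus governs feeding, reproduction, body temperature and pituitary hormone release, and it holds neurons that secrete peptides, myelin-forming oligodendrocytes and astrocytes. Quail and chicken are both galliform birds, and the quail hypothalamus is a classic preparation for the study of photoperiodic reproduction, in which thyroid hormone is activated locally by the deiodinase DIO2. The question addressed by the design is how an array made from chicken sequences reads the same tissue of another bird. A level below is the log2 of the ratio of sample to reference, after the median over all spots of that array was subtracted. A difference is the quail mean minus the chicken mean on that scale, with its standard error (SE). That the sample is the numerator is likely and not stated: plasma protein genes had a median level of 0.55 in chicken liver, skeletal muscle genes 0.71 in chicken muscle and neuronal genes 0.32 in chicken hypothalamus. Spots of the same clone were averaged to 18547 probes, and named probes were combined into 6428 genes. Calls were made by limma where the p adjusted over all probes, or over all genes, was under 0.05.

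Arrays of the same group were not close to each other. The SD of the levels over probes was 0.84, 0.57 and 1.12 on quail replicates 1 to 3, against 0.69, 0.82, 0.79 and 0.50 on chicken replicates 1 to 4. Quail replicate 3 was the widest array and chicken replicate 4 the narrowest, and a difference between the group means of 0.84 in quail and 0.70 in chicken was not detectable (exact two-sided permutation test, p = 0.4, where 3 against 4 arrays cannot go below 0.0571). Over all probes, quail replicate 1 correlated with chicken replicate 1 at 0.68 and with quail replicate 3 at -0.15. Quail replicate 3 in turn correlated with chicken replicate 3 at 0.53 and with chicken replicate 1 at -0.26. The median correlation was 0.40 over the 3 quail pairs, 0.27 over the 6 chicken pairs and 0.32 over the 12 pairs of a quail with a chicken array. Quail replicate 3 is numbered 19 in its description but 3 in its title, which was used.

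The tissue label was checked by gene lists. Neuronal and synaptic genes (41 measured) had median levels of 0.45, 0.20 and -0.27 on quail hypothalamus replicates 1 to 3, against 0.51, 0.40, 0.14 and 0.25 on the chicken hypothalamus arrays. Set against liver of the same species, their median difference was 0.44 in quail and 0.54 in chicken, and 2 genes in quail and 7 in chicken were called higher in hypothalamus. Among all genes, 0.0622% were called higher in hypothalamus than in liver in quail, and 0.373% in chicken. Plasma protein genes ran the other way, with a median hypothalamus minus liver difference of -0.85 in quail and -1.50 in chicken. Glial genes set the tissues apart in chicken more than in quail: the median hypothalamus minus liver difference was -0.13 in quail and 0.39 in chicken for myelin genes, and 0.07 in quail and 0.44 in chicken for astrocyte genes. The neuronal median of quail replicate 3 was the lowest of the hypothalamus arrays and lay within the range of the quail livers, -0.77 to 0.14.

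In the fit to all arrays, every call went in 1 direction. Of 18547 probes, 40 were called lower in quail than in chicken hypothalamus (0.216%) and 0 higher, and of 6428 genes 3 were called lower (0.0467%) and 0 higher. The counts depended on the fit: with the 7 arrays alone 0 probes and 1 gene were called, and with arrays not centred 3 probes and 0 genes. With array weights 290 probes were called lower and 42 higher, and 65 genes lower and 17 higher. Those weights were 0.70, 7.28 and 0.43 on quail replicates 1 to 3, so the quail means then rested mostly on replicate 2. On chicken replicates 1 to 4 they were 1.26, 0.92, 0.80 and 3.43. Fewer probes and genes than the share of 0.05 that chance alone would give had an unadjusted p under 0.05 in the main fit. There limma gave 569 probes lower and 134 higher, and 174 genes lower and 70 higher. Among the large differences the same side led: 84 probes lay at -2 or below in quail, against 1 probe at 2 or above. With quail replicate 3 left out these were 70 and 3 probes. The smaller differences did not keep that lean, since 636 probes lay at -1 or below and 157 at 1 or above with all arrays, but 409 and 403 without quail replicate 3. The quail and chicken arrays did not overlap for 196 genes that were lower in quail (3.05%) and for 171 that were higher (2.66%).

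ARIH1, a ubiquitin ligase of the RING-between-RING class that adds the first ubiquitin to substrates of cullin ligases, had levels of -1.17, -1.86 and -2.10 on quail replicates 1 to 3. On chicken replicates 1 to 4 it had levels of 0.95, 0.76, 1.10 and 0.38. The groups did not overlap, and the spread within each was small beside the gap. The means were -1.71 ± 0.48 in quail and 0.80 ± 0.31 in chicken (SD, n = 3 and n = 4), a difference of -2.51 (SE 0.46), or 5.70-fold lower in quail (limma, adjusted p = 0.0184). ARIH1 was represented by a pair of clones, and both were called, with differences of -2.76 and -2.26.

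PPIL4, a nuclear cyclophilin with an RNA recognition motif, had levels of -1.63, -2.17 and -3.03 on quail replicates 1 to 3. On chicken replicates 1 to 4 it had 0.41, 1.84, -0.47 and 0.39. Chicken replicate 3 was the only chicken array on which PPIL4 lay below 0, and it still lay above every quail array. The difference was -2.82 (SE 0.58), 7.06-fold lower in quail (limma, adjusted p = 0.0447), with means of -2.28 ± 0.71 in quail and 0.54 ± 0.96 in chicken. PPIL4 rested on 1 clone on 1 spot.

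CYP2D6, a cytochrome P450 known in humans for drug oxidation, was the third called gene and had levels of -0.92, -1.99 and -3.30 in quail. Its chicken levels were 1.15, 0.53, 0.58 and 0.14. Quail replicate 3 was the lowest of the 7 arrays by more than 1 log2 unit, and the groups did not overlap. The means were -2.07 ± 1.19 in quail and 0.60 ± 0.42 in chicken, a difference of -2.67 (SE 0.53), 6.35-fold lower (limma, adjusted p = 0.0400). Like PPIL4, CYP2D6 rested on 1 clone on 1 spot.

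**Figure D1:**
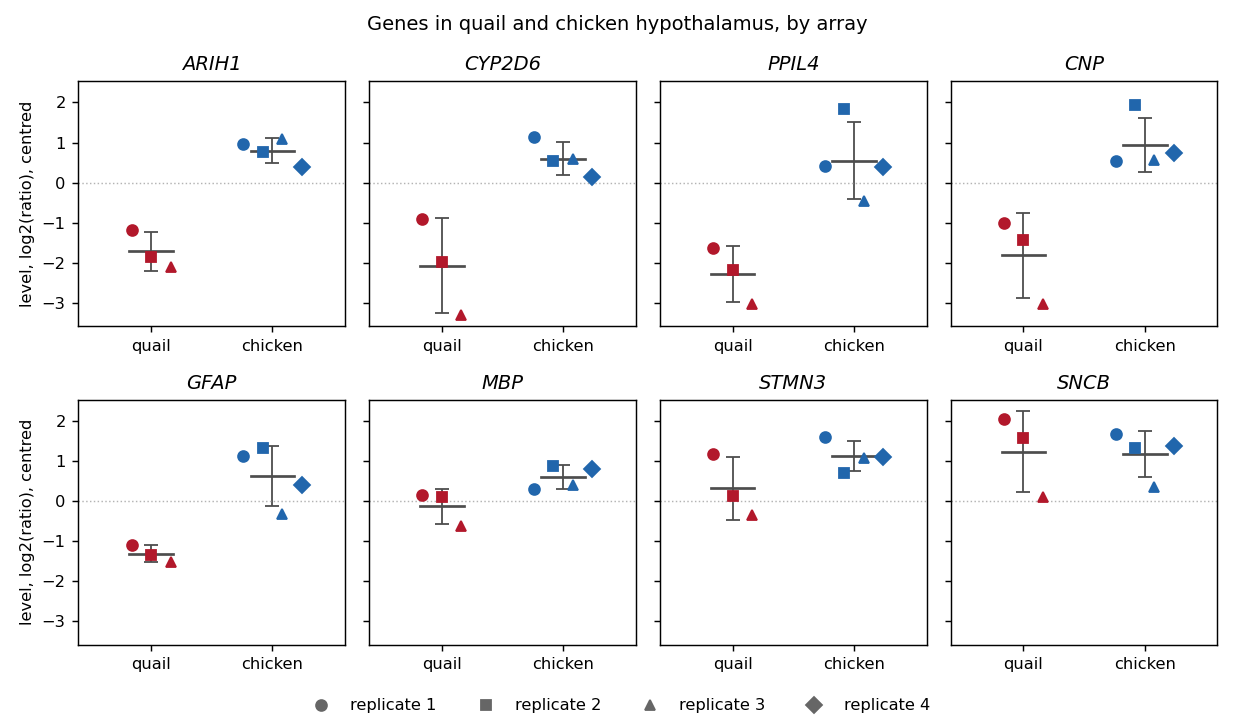
Level (log2 of the ratio to the reference, centred per array) of 8 genes on the 3 quail and 4 chicken hypothalamus arrays; each point is an array, its shape the replicate number, bars the mean and whiskers the SD. ARIH1, CYP2D6, PPIL4, CNP, GFAP and MBP do not overlap between the species, while SNCB has means of 1.24 in quail and 1.18 in chicken.

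Without quail replicate 3 none of the 3 genes passed the threshold, and their differences stayed large: -2.32 for ARIH1, -2.05 for CYP2D6 and -2.44 for PPIL4. The calls did not hang on that array alone. Leaving out quail replicate 2, or chicken replicate 1, 2 or 3, also left 0 called genes, leaving out chicken replicate 4 left 1, and leaving out quail replicate 1 left 4. The number of called probes was 36, 2 and 1 without quail replicates 1, 2 and 3, and 2, 5, 26 and 34 without chicken replicates 1 to 4.

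The families of the called genes held no other call, where only 0.0467% of all genes were called lower. Of 17 peptidyl-prolyl isomerases, the enzymes that rotate proline bonds during protein folding, PPIL4 alone was called, and the median difference of the list was 0.01. The range ran from PPIL4 to NKTR, another cyclophilin, at 0.84. Of 99 ubiquitin ligases, conjugating and deubiquitinating enzymes, ARIH1 alone was called, and the list median was 0.02. Over all genes the median was 0.03.

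The 3 genes that completed the 6 with the smallest p among those lower in quail missed the threshold. OARD1, which removes ADP-ribose from proteins, had -1.47, -1.86 and -1.87 in quail, against 0.39, -0.08, 0.39 and -0.26 in chicken (difference -1.84, SE 0.40, limma adjusted p = 0.0529), and was called lower in liver (-1.49, adjusted p = 0.0480). CNP, the cyclic nucleotide phosphodiesterase of oligodendrocytes and a classic myelin protein, had -1.0, -1.42 and -3.02 in quail, against 0.53, 1.94, 0.56 and 0.75 in chicken. Its difference was -2.76 (SE 0.60, limma adjusted p = 0.0529 over genes), and its single clone was called over probes (adjusted p = 0.0241). ATP8A2, a neuronal phospholipid flippase, differed by -1.74 (SE 0.38, limma adjusted p = 0.0546). None of their arrays overlapped between the species. Over probes the last call had an adjusted p of 0.0486 and a difference of -2.17, and the first probe outside was the OARD1 clone at 0.0523.

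No gene was called higher in quail. The 6 genes with the smallest p on that side and no overlap between groups had differences of 0.99 to 1.36 and limma adjusted p of 0.662 to 0.998. They were USP34, a deubiquitinase (1.34), P3H1, a collagen prolyl hydroxylase (1.36), GINM1, a membrane glycoprotein (1.24), POLR2H, a subunit shared by RNA polymerases (1.10), CHRDL2, a chordin-like secreted protein (1.03), and PLA1A, a phosphatidylserine phospholipase (0.99). POLR2H was the tightest of them, with 0.98, 0.89 and 0.79 in quail, against -0.22, 0.12, -0.37 and -0.40 in chicken. USP34 was highest on quail replicate 3 at 2.62, where the other quail arrays had 0.67 and 0.37, and without that array its difference was 0.64.

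The called probes could be followed through every bird and tissue of the series. Their median level was -1.54, -2.30 and -2.69 on quail hypothalamus replicates 1 to 3, against 0.81, 0.82, 0.41 and 0.12 on chicken hypothalamus replicates 1 to 4. All 40 lay below 0 on each quail array, and none overlapped between the species, where 3.44% of all probes lay wholly lower in quail and 2.04% wholly higher; the call itself selects for this. Quail replicate 3 was the lowest quail array for 24 of the 40 and quail replicate 1 the highest for 32. Without quail replicate 3 their median difference was -2.39, in place of -2.59, and the smallest in size was -1.70.

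Quail liver, on arrays that the hypothalamus comparison did not use, gave like levels. The median of the group means over these 40 probes was -2.09 in quail hypothalamus and -2.13 in quail liver. In chicken it was 0.49 in hypothalamus, -0.46 in liver, -0.67 in muscle and -0.15 in fat. Between the livers, 39 of the 40 were lower in quail, where 49.0% of all probes were, and the median difference was -1.49. Of the 40 probes, 11 were also called lower in quail liver, which is 27.5% of the hypothalamus calls and 15.7% of the 70 liver calls in that direction, where 0.377% of all probes were called lower in quail liver. In the test of the difference between tissues, 0 of 18547 probes were called by limma (877 had an unadjusted p under 0.05, near the share that chance alone would give). The 40 probes had a median of -1.10 on that scale, which includes the hypothalamus values that chose them.

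ARIH1 and CYP2D6 were called in liver too. ARIH1 had -2.50, -3.07, -2.81 and -1.90 in quail livers, against -1.07, -0.70, -0.70 and -0.44 in chicken livers (difference -1.85, SE 0.43, limma adjusted p = 0.0316). Its clones split in liver. One differed by -2.86 and was called (limma, adjusted p = 0.0086 over probes), and the other by -0.83 and was not (adjusted p = 0.673). CYP2D6 had -2.87, -0.75, -2.70 and -1.96 in quail livers, against -0.19, -0.54, 0.03 and 0.52 in chicken livers (difference -2.02, SE 0.49, limma adjusted p = 0.0435). The ARIH1 livers did not overlap, and quail liver replicate 2 came near the lowest chicken liver for CYP2D6. PPIL4 had -1.83, -1.38, -1.67 and -1.76 in quail livers, against -0.83, -0.78, -0.15 and -0.43 in chicken livers, a gap of -1.11 (SE 0.54) that missed the threshold (adjusted p = 0.499) although the groups did not overlap. Among all genes 0.498% were called lower in quail liver and 0.513% either way.

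**Figure D2:**
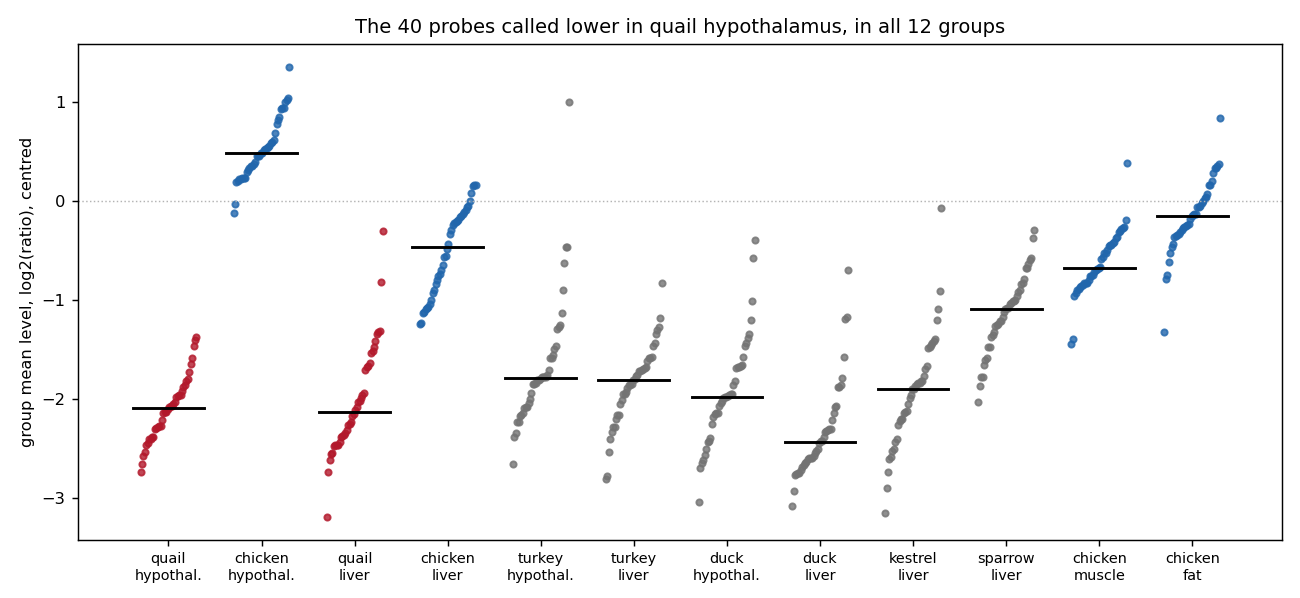
Group mean levels (log2 of the ratio to the reference, centred per array) of the 40 probes called lower in quail than in chicken hypothalamus, in all 12 groups; each point is a probe, sorted within its group, and the line is the median. Medians are -2.09 in quail and 0.49 in chicken hypothalamus, -2.13 in quail and -0.46 in chicken liver, and between -1.08 and -2.43 in the groups of the other birds.

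The other birds also had low levels at these probes. The median of the group means was -1.79 in turkey and -1.97 in duck hypothalamus, and -1.80, -2.43, -1.90 and -1.08 in turkey, duck, kestrel and sparrow liver. Turkey minus chicken and duck minus chicken hypothalamus share the 4 chicken arrays with the quail comparison, so their medians of -2.19 and -2.35 are values beside the quail median of -2.59 and not separate evidence. Quail minus turkey hypothalamus uses no chicken sample, and there 0 probes and 0 genes were called by limma, with 124 probes and 56 genes at an unadjusted p under 0.05. Those counts are also below the share of 0.05 that chance alone would give, so 0 calls do not show that quail and turkey are alike. The 40 probes had a median quail minus turkey difference of -0.38, and 28 of them were below 0, where 47.6% of all probes were. That contrast includes the quail hypothalamus values that chose these probes. For ARIH1 the quail minus turkey difference was -0.19, for CYP2D6 -0.23 and for PPIL4 -0.50. Sparrow liver, from the only songbird in the series, had the highest median outside chicken, but its 3 arrays differed widely. They ran from -2.24 to 0.69 for ARIH1, from -2.24 to 0.006 for CYP2D6 and from -3.37 to -0.30 for PPIL4.

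Of the 40 called probes, 23 carried no gene name here (57.5%, where 46.4% of all probes carried none) and 17 were clones of 16 genes. Beside ARIH1, PPIL4, CYP2D6 and CNP, these were genes named after their values were seen, with a single called clone each: PDCD4, ACTR1A, ARFGAP3, PLCL2, BMP7, ABAT, CCNI, RAP1GDS1, SNX1, TTLL11, WASF2 and SMIM15. PDCD4 restrains translation initiation, ACTR1A is the actin-related core of dynactin, ARFGAP3 acts on Golgi vesicles, and BMP7 is a secreted growth factor. ABAT degrades the neurotransmitter GABA, RAP1GDS1 binds small GTPases, SNX1 sorts endosomal cargo and WASF2 drives actin assembly.

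Other clones of the same genes were, ARIH1 apart, not called. Of the 16 genes, 12 had more than 1 clone on the array, and their 17 uncalled clones had a median difference of 0.11, from -0.31 to 0.86. Of these 17, 0 had arrays that lay wholly lower in quail, a share near that of all probes (3.44%). For PDCD4 the called clone had -1.56, -2.17 and -3.48 in quail, against 1.42, 1.35, 0.40 and 0.54 in chicken, a difference of -3.33 (SE 0.66). The other PDCD4 clone had a mean of 0.55 in quail and -0.16 in chicken. ABAT showed the same split: the called clone had means of -1.73 and the other 0.25 in quail, against 0.85 and -0.08 in chicken. For BMP7 the called clone averaged -1.58 ± 0.03 in quail and 1.02 ± 0.55 in chicken, and the second clone 0.67 ± 0.80 in quail and -0.07 ± 0.995 in chicken. Averaged over their clones, 11 of the 12 genes were not called. ARIH1 was the only gene with more than 1 clone for which every clone was called.

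**Figure D3:**
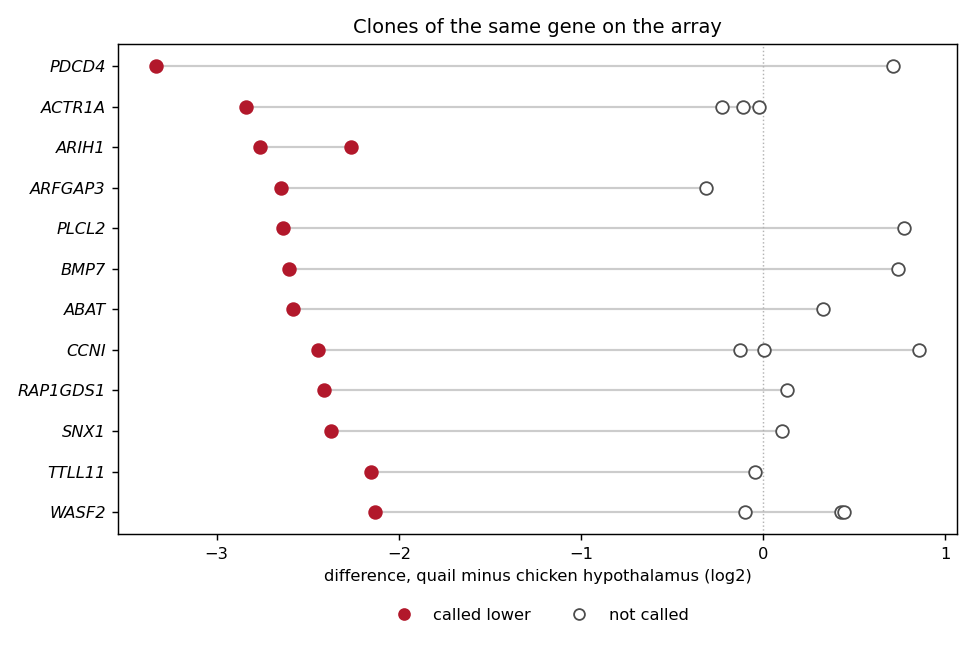
Difference, quail minus chicken hypothalamus (log2), of each clone of the 12 genes with a called clone and more than 1 clone on the array; filled points are called lower in quail, open points are not called. The open points lie between -0.31 and 0.86 and the filled ones at -2.13 or below, except that ARIH1 has no open point.

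Most of the named clones among the calls came from 1 stretch of accessions. Of the 17 named ones, 14 (82.4%) carried GenBank accessions from 1 run, with the same first 4 characters, which held 1683 of 9948 named clones (16.9%). The 14 included the only clones of PPIL4 and CYP2D6 and 1 of the pair of ARIH1 clones. Of the 17 uncalled clones described above, that of TTLL11 alone belonged to the run. The run was cut by those 4 characters alone, and an uncalled CCNI clone (difference 0.006) lay just below it. The run was picked out after its share was seen, and its clones are described without a test. Over the whole run the median difference between quail and chicken hypothalamus was -0.20, where it was 0.10 for the other 8265 named clones. At -1 or below lay 150 clones of the run (8.91%) and 154 of the other named clones (1.86%), and at 1 or above lay 1 clone of the run and 76 of the others. Without quail replicate 3 the medians were -0.04 for the run and 0.09 for the others. In liver, on other arrays, 9.63% of the run and 2.53% of the other named clones lay at -1 or below, and the medians were -0.17 and 0.06. Of the run 28 clones were called lower in quail liver and 0 higher, and of the others 12 lower and 3 higher, where 0.0324% of all probes were called higher in quail liver. In quail minus turkey hypothalamus the medians were 0.04 for the run and 0.02 for the other named clones. The called probes lay in 24 of the 48 print blocks, with at most 4 in a block. What these clones have in common beside the accession was not tested.

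**Figure D4:**
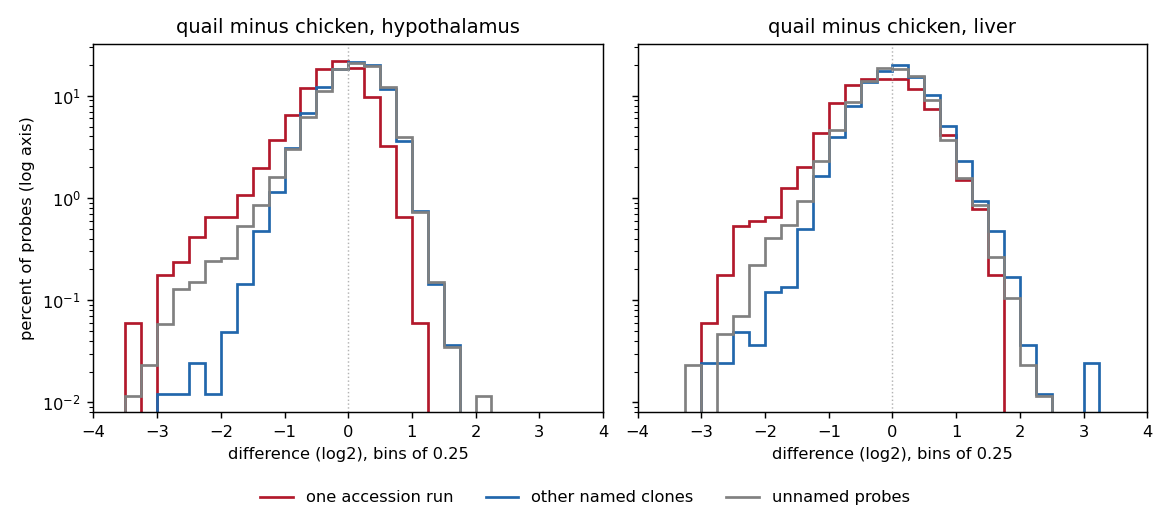
Distribution of the difference, quail minus chicken (log2, bins of 0.25), in hypothalamus and in liver for the named clones of 1 accession run, the other named clones and the unnamed probes, as percent of each class on a log axis. In both tissues the run has a longer tail on the negative side: 8.91% at -1 or below in hypothalamus, against 1.86% of the other named clones, and 9.63% against 2.53% in liver.

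Genes of neurons leaned lower in quail by an amount that depended on single arrays. Of 41 neuronal and synaptic genes, 32 had a difference below 0, and their median difference was -0.21, where all genes had a median of 0.03. None was called, where 0.0467% of all genes were. Without quail replicate 3 the median was -0.04, where all genes had 0.07. Without quail replicate 1 the neuronal median was lower than -0.21. With arrays not centred every difference was 0.24 higher, which put the neuronal median at 0.03 and that of all genes higher by the same amount. STMN3, a neuronal microtubule regulator, had 1.19, 0.14 and -0.35 in quail, against 1.61, 0.70, 1.08 and 1.10 in chicken. SNCB, a presynaptic synuclein, had 2.05, 1.56 and 0.09 in quail, against 1.66, 1.32, 0.35 and 1.37 in chicken, and was lowest on replicate 3 of each species. The groups overlapped for both, as they did for ENO2, the neuronal enolase (-0.35), and TUBB3, the neuronal tubulin (-0.59). GRIN1, the obligatory subunit of NMDA receptors and named after its values were seen, was the single list member without overlap. That is 2.44% of the list, near the 3.05% of all genes that lay wholly lower in quail. GRIN1 had -1.08, -1.98 and -2.17 in quail, against -0.23, -0.03, -0.73 and -0.71 in chicken (difference -1.32, SE 0.55, not called).

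Secretory machinery and hypothalamic regulators gave no call, where 0.0467% of all genes were called. At that share a list of this size would seldom hold a call. The 12 genes of secretory granules and prohormone processing had a median difference of -0.01, with levels above 0 on all 7 arrays: their medians were 0.68, 0.50 and 0.43 in quail, against 0.44, 0.46, 0.46 and 0.28 in chicken. PTPRN, a granule membrane protein, had 1.69, 1.22 and 0.57 in quail, against 1.89, 0.53, 0.04 and 0.58 in chicken. Of 19 hypothalamic neuropeptides and hormonal regulators 0 were called, and the median difference was 0.05.

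NPY, the feeding-stimulating peptide, had 0.78, 0.58 and -0.61 in quail, against 1.94, 1.35, 0.25 and 0.94 in chicken (difference -0.87, SE 0.62), and POMC, the precursor of melanocortins, differed by 0.07 (SE 0.41). The groups overlapped for both. DIO2 was the member without overlap, at -0.28, -0.73 and -0.55 in quail, against -0.05, 0.33, 0.39 and 0.11 in chicken (difference -0.72, SE 0.35, not called). Among 14 clock and photoperiod genes the median difference was -0.06 and none was called, where 0.0467% of all genes were. AANAT, the melatonin-producing acetyltransferase (-0.89, SE 0.47), and CLOCK (-0.69, SE 0.39) were, with DIO2, the 3 of 14 without overlap, all lower in quail, where 3.05% of all genes were. These genes were also named after their values were seen, and light schedule differed between the species. Each of the 3 without overlap had a clone in the accession run described above, as did members of the list whose groups overlapped.

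Glial genes split between a few large differences and many small ones. Of 17 myelin and oligodendrocyte genes 11 lay below 0, and the median difference was -0.28, or -0.03 without quail replicate 3 and 0.03 without chicken replicate 2. The arrays' medians were 0.37, 0.03 and -0.19 in quail, against 0.30, 0.74, -0.07 and 0.13 in chicken. CNP was the largest difference of the list. MBP, the myelin basic protein, had 0.14, 0.09 and -0.63 in quail, against 0.30, 0.89, 0.39 and 0.81 in chicken (difference -0.73, SE 0.43, limma adjusted p = 0.998). Its groups did not overlap as the average of 2 clones, but for each clone taken alone they did. CLDN11, a tight junction protein of myelin named after its values were seen, differed by -1.13 (SE 0.52), and its groups did not overlap either.

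GFAP, the intermediate filament of astrocytes, had -1.08, -1.35 and -1.51 in quail, against 1.13, 1.32, -0.31 and 0.40 in chicken. The groups did not overlap, and the 3 quail arrays lay close together. The difference was -1.95 (SE 0.46, limma adjusted p = 0.0906), its 2 clones gave -1.83 and -2.07, and both clones belong to the accession run described above. AGT, which astrocytes make as the precursor of angiotensin and which, like S100B, was named after its values were seen, had -0.66, -1.02 and -1.44 in quail, against 0.32, 0.29, 0.20 and -0.33 in chicken (difference -1.16, SE 0.38, limma adjusted p = 0.662). The other astrocyte genes had smaller differences: over 13 members the median difference was -0.10, or -0.02 without quail replicate 3. Without chicken replicate 3, or without quail replicate 1, that median was lower than -0.10. S100B differed by -0.29 (SE 0.69) with 2.27 on quail replicate 1. Of the 102 genes of the neuronal, secretory, hypothalamic, myelin and astrocyte lists, 7 did not overlap and were lower in quail and 0 were higher, where 3.05% of all genes lay wholly lower and 2.66% wholly higher. Of these 7, 6 had a clone in the accession run, as did 58 of all 102 by a count per gene. That count missed the PPIL4 clone, which is in the run, so 58 may be too low. The same count over all genes is not given here, and the run held 16.9% of all named clones. As the tissue was measured in bulk, fewer cells of a type and less RNA per cell cannot be told apart. A weaker match of quail RNA to these chicken clones cannot be told apart from either.

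**Figure D5:**
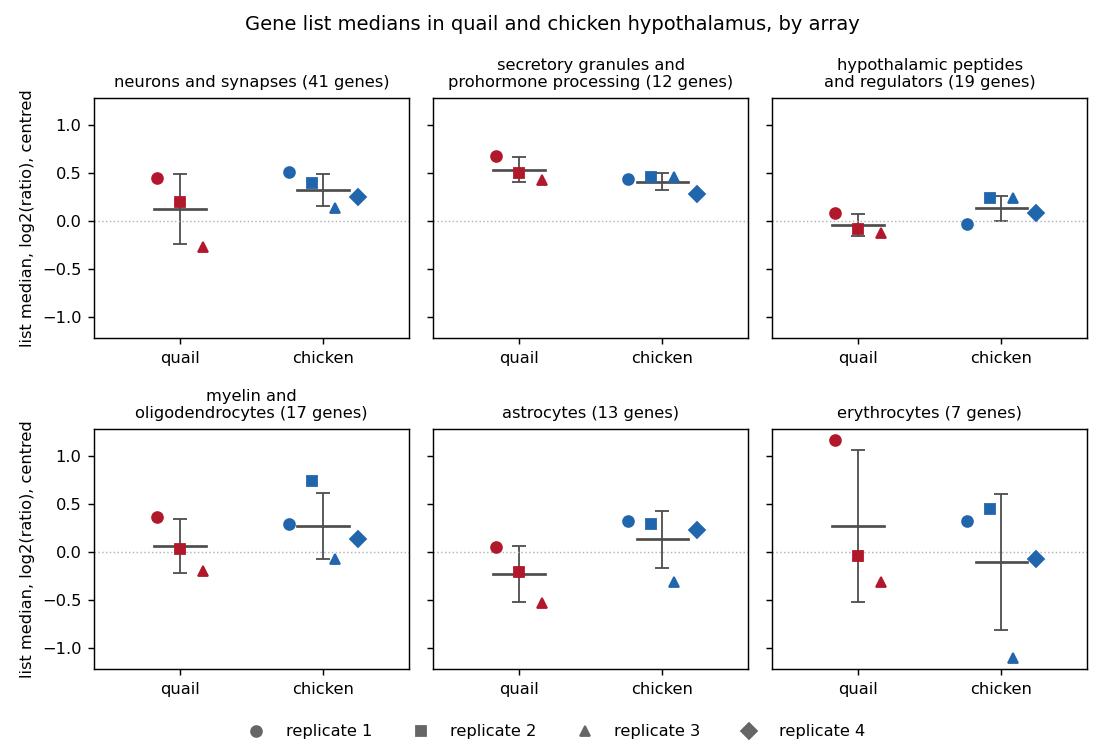
Median level (log2 of the ratio to the reference, centred per array) of 6 gene lists on the 3 quail and 4 chicken hypothalamus arrays; each point is an array, its shape the replicate number, bars the mean and whiskers the SD. Replicate 3 has the lowest point of its species in the neuronal, myelin, astrocyte and erythrocyte lists, and the granule list lies between 0.28 and 0.68 on all 7 arrays.

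Genes of other tissues moved with single arrays. The 7 erythrocyte genes had medians of 1.17, -0.04 and -0.32 in quail, against 0.32, 0.45, -1.11 and -0.07 in chicken. Their median difference was 0.63 and 0 were called, where 0.0467% of all genes were. Anterior pituitary genes had 0.50, 0.04 and -0.12 in quail, against 0.50, 0.60, -0.35 and -0.40 in chicken, with a median difference of -0.09 over 7 genes. In both lists replicate 1 was the highest quail array, and chicken replicates 1 and 2 lay above 3 and 4. Genes of ependyma, choroid plexus and meninges had 0.04, -0.50 and -1.37 in quail, against -0.27, -0.15, -1.34 and -0.59 in chicken, so replicate 3 was lowest in each species. ALB, the plasma albumin, was low in both groups (-1.94 ± 0.08 in quail and -2.49 ± 0.69 in chicken), and so was the muscle myosin light chain MYL1 (-2.0 ± 0.38 in quail and -2.47 ± 0.88 in chicken). The part of these cell types in the differences above was not tested.

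In the test of the species difference between tissues, the chicken livers and hypothalami also differ in age and light schedule, as given above. They may differ in line too. STEAP3, an endosomal iron reductase, was the only gene called in that test. It had -1.56, -1.45 and -1.69 in quail hypothalamus, against -2.03, -1.98, -2.45 and -2.38 in chicken hypothalamus, a difference of 0.64 (SE 0.37) that was not called. In liver it had -1.06, -1.12, -1.70 and -0.59 in quail, against 0.73, 1.11, 1.56 and 0.93 in chicken (difference -2.20, SE 0.35, limma adjusted p = 0.000991). The species difference was thus 2.84 higher in hypothalamus than in liver (limma, adjusted p = 0.0121, with 0.0156% of all genes called in that direction). Without quail hypothalamus replicate 1, or without replicate 2, 0 genes were called in that test. STEAP3 rested on 1 clone on 1 spot. Over probes, with that clone among them, 0 of 18547 were called in the same test. The species did not overlap in either tissue, and the sign was opposite in liver and hypothalamus, but only the liver difference was called. STEAP3 was also low in chicken muscle (-1.92) and fat (-2.32) and in turkey (-2.51) and duck hypothalamus (-1.86). The hypothalamus gap thus lay between low levels. Among livers of the other birds it was 0.42 in turkey, and -1.83, -2.09 and -1.55 in duck, kestrel and sparrow.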

How the data were processed

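The authors deposited 1 table of the series with a value per spot and array for 43 arrays, read as linear ratios of the channels because all values lie above 0 and array medians run from 0.535 to 1.83. No source used here gives the scanner, background correction, normalization or numerator. Spot intensities were not used here, which leaves signal over background unknown; precision is limited by the few arrays. Each of 19200 spots had a value. Ratios were put on the log2 scale and centred per array, spots of a clone averaged (18547 probes), and probes with 1 symbol averaged to 6428 genes. Symbols came from the platform annotation, updated by gene identifier for 10455 spots, kept for 146, absent for 8599. A model with a mean for each of 12 groups was fitted across 43 arrays by limma 3.58.1 (R 4.3.3), moderated by eBayes, with p-values adjusted after Benjamini-Hochberg; the fit was tested on simulated data. Plots used matplotlib 3.10.9 in Python.

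The members and the 27 gene lists were chosen with earlier results of these data known. Named genes were PPIL4 and ARIH1, called genes without overlap filled to 6 per direction by the smallest p, called list members, genes also called in liver or in the difference between tissues, and 10 tissue checks; others are said to be chosen after their values were seen. Alternatives covered normalization, array weights, replicates left out, a replicate block and a pseudocount.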

Additional observations from a re-analysis of the deposited data

Results flagged for a closer look

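Among the 4 chicken hypothalamus arrays, single arrays stood far from the others for a gene and 3 list medians. CNP had 1.94 on chicken replicate 2, where the other chicken arrays had 0.53 to 0.75. The astrocyte median was -0.31 on chicken replicate 3, where the others had 0.23 to 0.32, and the extracellular matrix median was -0.82 on the same array, where the others had -0.30 to -0.28. The median of secretory granule genes was 0.28 on chicken replicate 4, where the others had 0.44 to 0.46. Dixon's ratio was applied to 60 groups of 4 arrays, and chance alone exceeds its critical value in about 1 group of 20. Groups of 3 arrays, quail hypothalamus among them, were not examined.

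The difference of STEAP3 between quail and chicken was 2.84 higher in hypothalamus than in liver (limma, adjusted p = 0.0121). In hypothalamus 3 of 3 quail arrays lay above all chicken ones, but that difference (0.64) was not called. In liver 4 of 4 quail arrays lay below all chicken ones (-2.20, called). STEAP3 rested on 1 clone on 1 spot, and over probes 0 of 18547 were called in the difference between tissues.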

How the results depend on the processing

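Called probes numbered 40 lower and 0 higher in quail hypothalamus, and called genes 3 and 0. Left as deposited without centring, which shifts every difference by 0.24, they were 3 probes and 0 genes. Other changed counts of lower genes were 8 under quantile normalization, 6 with equal median absolute deviations, 5 with print blocks centred and 8 with 0.1 added to the ratio. Trend and robust eBayes gave 20 probes and 1 gene. Without chicken muscle replicate 4, sparrow liver replicate 1 and duck hypothalamus replicate 3 there were 76 probes lower, 1 higher and 19 genes lower. Array weights by the gene-by-gene method, chosen after the default did not converge, gave 290 lower and 42 higher probes, 65 lower and 17 higher genes and 10 genes in the difference between tissues. The quail hypothalamus means in that fit rested mostly on replicate 2, which had a weight of 7.28. With only the 7 arrays, 0 probes and 1 gene were called. With the replicate number as a block, 196 probes were lower, 4 higher and 19 genes lower, and all 40 probes and 3 genes were among them. Same-numbered quail and chicken arrays deviated together at 0.64, 0.02 and 0.60 for replicates 1 to 3. Quail replicate 1 stood at -0.65 with chicken replicate 3, and quail replicate 3 at -0.60 with chicken replicate 1. Quail replicate 2 lay between -0.04 and 0.05 with every chicken array, and chicken replicate 2 deviated most with quail replicate 1, at 0.48. Replicate 2 thus cannot tell whether the numbers pair the arrays, and the main fit did not use them. Leaving out 1 array gave 1 to 36 lower probes, 0 to 4 lower genes and 0 to 1 genes in the difference between tissues. The list medians then ran from -0.49 to -0.036 for neurons, from -0.38 to 0.03 for myelin and from -0.49 to -0.022 for astrocytes. The low end came without quail replicate 1 for neurons and without chicken replicate 3 for astrocytes. Genes in the difference between tissues were 1 in the report, 2 under quantile normalization and 0 with equal median absolute deviations, print blocks centred or trend and robust eBayes. Liver genes called were 33, and 7 with equal median absolute deviations. SNCB, at 0.06, turned to -0.019 under quantile normalization, -0.0736 with equal deviations, -0.080 with print blocks centred, and -0.35, -0.10 and -0.21 without quail replicate 1, quail replicate 2 and chicken replicate 3; without quail replicate 3 it was 0.63. Quail minus turkey hypothalamus gave 0 genes throughout. Of the single-gene values under alternatives, 353 kept direction and side of the threshold, 27 newly passed it, 30 lost it and 6 turned. The causes were not tested. A planned filter on missing values did not apply, as there were 0 empty cells.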

Other observations

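Cytosolic ribosomal proteins (46 genes), which build the translation machinery of every cell, had median levels of 0.03, -0.31 and -0.90 on quail hypothalamus replicates 1 to 3, against -0.01, -0.16, -0.82 and -0.52 on chicken hypothalamus replicates 1 to 4. Their median difference was -0.07 and 0 were called, where 0.0467% of all genes were. Genes of the respiratory chain and ATP synthase (42 genes) had -0.003, -0.13 and -0.56 in quail, against -0.13, -0.01, -0.56 and -0.28 in chicken. Replicate 3 was the lowest array of each species for both lists, at nearly the same level, so these genes varied within a species more than between the species. Extracellular matrix genes (31 genes) had a median difference of 0.26, and 8 of them lay below 0.

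Over the 1683 clones of the accession run, the median of the group means was -0.09 in quail hypothalamus and 0.10 in chicken hypothalamus, and -0.22 in quail liver and -0.09 in chicken liver. It was -0.13 and -0.26 in turkey and duck hypothalamus, and -0.29, -0.17, -0.07 and -0.05 in turkey, duck, kestrel and sparrow liver. Chicken muscle had -0.17 and chicken fat -0.03, so chicken hypothalamus was the only group with a median above 0.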
